A study of Homo sapiens with 4 samples.

Results

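The 10 genes of an amino acid response driven by the transcription factor ATF4 were examined for FOXK2 occupancy in ovarian cancer cells, and 3 of the 10 were assigned a FOXK2 peak in both biological replicates, close to the 28.6% of all coding genes that were. For 1 of the 3, PSAT1, the peak shared by the replicates lay more than 100 kb from the gene. The genes were ASNS, PSAT1, PHGDH, SHMT2, MTHFD2, TRIB3, CHAC1, CEBPB, CEBPG and GDF15, taken from 20056 protein-coding genes of the reference. Their peaks were the rows of the deposited lists that name any of these genes as the gene of the nearest transcription start site (TSS). This gave 6 of 12471 peaks in replicate 1 and 11 of 27281 peaks in replicate 2. FOXK2 ChIP-seq was done in OVCAR-5 cells, an established ovarian cancer line that the labels describe as high grade serous, under a single condition with 2 replicates and no knockdown or stress arm. The 2 matched input libraries were not analysed here. Peak lists hold no expression values, so the cell type label could not be checked against markers. With 1 condition there was no test between conditions, and the main counts are given beside the same share over all genes or all peaks.

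When amino acids run short, or when misfolded proteins load the endoplasmic reticulum, kinases phosphorylate the translation factor eIF2alpha, and ATF4 mRNA is then translated more efficiently. ATF4 pairs with C/EBP proteins and switches on genes through composite sites whose core reads TGATGNAA. The targets include enzymes of asparagine and serine synthesis, mitochondrial folate enzymes, and feedback regulators. FOXK2 is a forkhead factor, a class of proteins that recognise a core such as TGTTTAC.

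GDF15 had the most peaks in replicate 1 and as many as PSAT1 in replicate 2, with a TGTTTAC core at its promoter in the overlap of both replicates' peaks, and PSAT1 and PHGDH were the other genes with peaks in both lists. The bases of the main sites follow, with each match to TGTTTAC, TGATGNAA, TTGCNNAA or TGANTCA on either strand in capitals. GDF15 promoter, chr19:18386052-18386078, hg38, plus strand:
GDF15 promoter core: gtcattggagTGTTTACtctgcaggca
The next is the strongest GDF15 peak of replicate 2, chr19:18380105-18380361, plus strand, in which a TGTTTAC core and a TGATGNAA match read on the minus strand are 1 base apart:
GDF15 upstream peak: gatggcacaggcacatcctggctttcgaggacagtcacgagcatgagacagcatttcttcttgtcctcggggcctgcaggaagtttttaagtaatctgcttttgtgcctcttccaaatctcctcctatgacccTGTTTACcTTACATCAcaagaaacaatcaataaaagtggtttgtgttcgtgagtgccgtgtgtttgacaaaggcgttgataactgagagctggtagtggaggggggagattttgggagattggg
The PHGDH and PSAT1 peaks shared by both replicates are shown as called in replicate 2, at chr1:119731168-119731424 and chr9:78540115-78540371, plus strand, and neither holds TGTTTAC:
PHGDH intron peak: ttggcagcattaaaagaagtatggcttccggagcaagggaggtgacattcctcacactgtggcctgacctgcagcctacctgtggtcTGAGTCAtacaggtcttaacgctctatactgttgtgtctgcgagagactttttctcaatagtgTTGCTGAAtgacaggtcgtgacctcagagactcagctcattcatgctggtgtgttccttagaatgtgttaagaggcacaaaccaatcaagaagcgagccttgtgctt
PSAT1 distal peak: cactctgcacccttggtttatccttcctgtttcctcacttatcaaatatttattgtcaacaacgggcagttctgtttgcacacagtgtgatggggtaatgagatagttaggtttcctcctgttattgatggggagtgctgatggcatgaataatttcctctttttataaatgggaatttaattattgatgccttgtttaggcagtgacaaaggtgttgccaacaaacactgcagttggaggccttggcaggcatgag
A peak at an upstream TRIB3 start, chr20:362542-362798, plus strand, and a stretch inside the CEBPB 3' end peak, chr20:50192386-50192413, plus strand, both carry a TGATGNAA match. Neither peak is assigned to those genes in the lists:
TRIB3 upstream start peak: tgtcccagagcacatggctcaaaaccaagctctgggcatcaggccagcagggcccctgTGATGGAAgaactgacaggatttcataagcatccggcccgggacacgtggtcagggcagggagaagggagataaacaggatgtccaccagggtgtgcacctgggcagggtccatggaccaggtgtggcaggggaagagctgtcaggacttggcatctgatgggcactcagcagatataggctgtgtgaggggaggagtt
CEBPB 3' end core: gtttcgaagtTGATGCAAtcggtttaaa

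Across the whole list, 4 of the 10 genes had an assigned peak in replicate 1, where 31.3% of all coding genes had 1. In replicate 2, 5 of the 10 had a peak, beside 51.7% of all coding genes. Both replicates gave a peak for 3 of 10 genes, GDF15, PSAT1 and PHGDH, beside 28.6% of coding genes. The same 3 genes had overlapping peaks in the 2 lists (1 bp or more), beside 25.8% of coding genes. The counts lay close to these backgrounds. CHAC1 had a peak in replicate 1 only, MTHFD2 and TRIB3 had peaks in replicate 2 only, and ASNS, SHMT2, CEBPB and CEBPG were assigned none in either list. A peak at the promoter in both replicates was found for GDF15 alone, 1 of 10 genes, beside 9.3% of coding genes. Of the 6 replicate 1 peaks, 5 overlapped a replicate 2 peak (74.9% of all replicate 1 peaks did), and 5 of the 11 replicate 2 peaks overlapped a replicate 1 peak (34.2% of all replicate 2 peaks did).

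**Figure D1:**
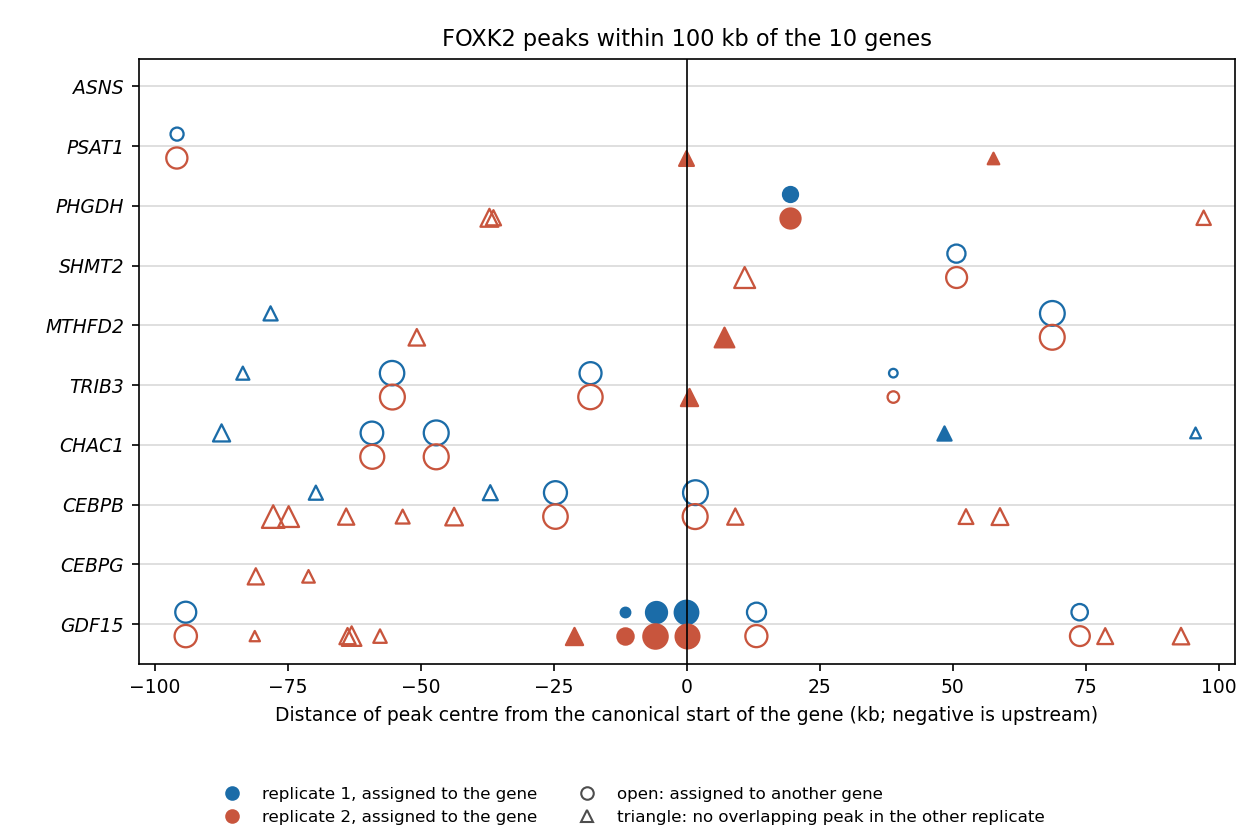
FOXK2 peaks within 100 kb of each gene, plotted by the distance of the peak centre from the gene's canonical GENCODE start in kb, with replicate 1 above and replicate 2 below each line. Filled symbols are assigned to the gene, open symbols to another gene, triangles have no overlapping peak in the other replicate, and larger symbols rank higher in their own list. GDF15 is the gene with filled circles at its start, while ASNS has no symbol and CEBPB has open circles just after its start.

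The score of a peak is its tag count scaled to the library, so it was ranked within its own list. Scores below 50 were whole multiples of 0.1886 in replicate 1 and 0.1487 in replicate 2, within 0.35 of a tag, which gave the tags behind each such peak. The tag count of a peak is given with its exact Poisson 95% interval, which covers counting error only. A median peak held 31 tags in replicate 1, at a score of 5.85, and 49 tags in replicate 2, at a score of 7.29. Of the peaks assigned to the 10 genes, 2 of 6 in replicate 1 and 6 of 11 in replicate 2 scored above those medians.

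GDF15 encodes a stress-induced cytokine that is secreted and acts on appetite, and the gene lies at chr19:18374731-18389176 on the plus strand. It was assigned 3 peaks in replicate 1 and 4 in replicate 2. At least as many peaks fell on 10.5% of the coding genes with any peak in replicate 1 and on 11.3% in replicate 2. Of these sites, 3 were shared between replicates, at the promoter and, by the replicate 1 list, at -5597 bp and -11387 bp from the start.

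The GDF15 promoter peak scored 10.6 in replicate 1 at chr19:18385938-18386148 (56 tags, 42.3 to 72.7, rank 1588). In replicate 2 it scored 15.6 at chr19:18386026-18386282 (105 tags, 85.9 to 127.0, rank 2990). The peaks overlapped by 123 bp, and their centres lay 115 bp and 4 bp before the canonical GENCODE start, in bases that GENCODE marks as untranslated exon of an alternative transcript. This was the best-ranked peak of the 10 genes in replicate 1. The lists gave the site its promoter label through a noncoding transcript. Its centres lay 83 bp and 194 bp after the GDF15 start that the lists used. The printed core with TGTTTAC lay 22 bp after the replicate 1 centre and was held by both peaks.

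The peak upstream of it lay in sequence that GENCODE places in a GDF15 intron of a longer transcript. It scored 7.17 in replicate 1 at chr19:18380258-18380468 (38 tags, 26.9 to 52.2, rank 4101). It scored 19.2 in replicate 2 at chr19:18380105-18380361 (129 tags, 108.0 to 153.0, rank 1744), the best rank among the 10 genes in that list. Each peak held 1 TGTTTAC, but the cores were separate copies, at 48 bp and 8 bp from the respective centres, and the peaks overlapped in part. The ratio of the replicate 2 score to the replicate 1 score was 2.68, above the 95th percentile of 2.5 over all 9343 shared pairs.

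The third shared GDF15 site was weak. It scored 3.77 in replicate 1 (20 tags, 12.2 to 30.9, rank 11801 of 12471) and 5.95 in replicate 2 (40 tags, 28.6 to 54.5, rank 17537 of 27281). Its edges stood 53 bp and 118 bp before the first GENCODE start of GDF15, at position 18374731, so it was distal by the lists and proximal by GENCODE. A further GDF15 peak, of score 6.39 and rank 16067, was called in replicate 2 only, in an untranslated exon of the neighbouring gene PGPEP1.

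**Figure D2:**
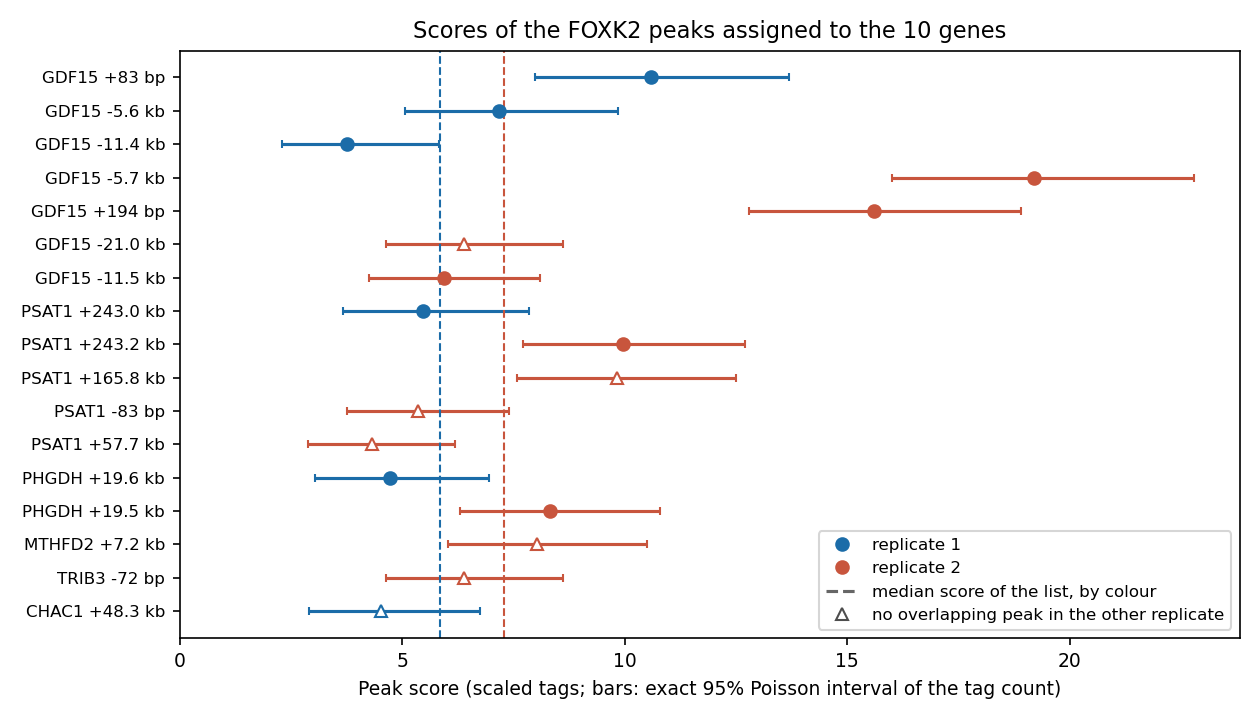
Peak score of each peak assigned to the 10 genes, on the x axis in scaled tags, with bars for the exact 95% Poisson interval of its tags, and 1 row per peak labelled by gene and distance from the start in the lists. Dashed lines mark the list medians of 5.85 and 7.29, and the GDF15 peaks of scores 10.6, 15.6 and 19.2 lie above the median of their list with their whole intervals, as do the PSAT1 peaks of scores 9.96 and 9.82.

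The serine synthesis enzymes had peaks away from their promoters or in 1 replicate only. PHGDH, which catalyses the first step of serine synthesis from glycolysis, was assigned a single peak in each list, in intron 5 of 11. It scored 4.72 in replicate 1 (25 tags, 16.2 to 36.9, rank 8857) and 8.33 in replicate 2 (56 tags, 42.3 to 72.7, rank 10878). The peaks shared 168 bp, at 19566 bp and 19500 bp after the start in the lists, and neither list had a PHGDH promoter peak. Their centres lay 2942 bp and 3008 bp before another GENCODE start of PHGDH. In replicate 2, peaks of scores 6.84 and 5.5 were assigned to ZNF697 but lay in sequence that GENCODE places in a PHGDH intron.

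PSAT1, the next enzyme of the same route, had 1 peak in replicate 1 and 4 in replicate 2. The shared peak was intergenic, 242977 bp and 243168 bp after the PSAT1 start, in a stretch where the next coding gene downstream, TLE4, begins 1270.0 kb from the PSAT1 start. It scored 5.47 (29 tags, 19.4 to 41.6, rank 6955) and 9.96 (67 tags, 51.9 to 85.1, rank 7837). The peaks touched by only 43 bp, with centres 191 bp apart, where the median gap over all shared pairs was 29.0 bp and the 90th percentile 94.0 bp. At the PSAT1 promoter a peak was called in replicate 2 only, at -83 bp, with 36 tags (25.2 to 49.8) and a score of 5.35 at rank 19709. PSAT1 was thus assigned to both lists through a distant site, and its promoter peak was below the median score of its list. The other PSAT1 peaks of replicate 2 stood at 165835 bp (score 9.82, 66 tags) and 57688 bp (score 4.31, 29 tags), and each held TGTTTAC.

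MTHFD2 and SHMT2, both mitochondrial folate enzymes, were assigned no peak shared by the replicates. MTHFD2, which oxidises methylene-tetrahydrofolate in mitochondria, had 1 peak in replicate 2, at 7153 bp after its start in an exon that the lists mark as non-coding (score 8.03, 54 tags, 40.6 to 70.5, rank 11531). The centre of this peak lay 668 bp before another GENCODE start of MTHFD2, at position 74206384. The strongest peak within 100 kb of MTHFD2 was a shared peak 68.7 kb downstream in an intron of SLC4A5. It stood at rank 310 in replicate 1 (score 19.4) and rank 400 in replicate 2 (score 34.1). SHMT2, which converts serine to glycine in mitochondria, had no assigned peak. The nearest peak to the SHMT2 start lay 50.7 kb away in replicate 1, assigned to STAC3, and 10.9 kb away in replicate 2, at the start of NDUFA4L2.

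By the lists' own assignment, the feedback regulators TRIB3 and CHAC1 had peaks in a single list each. TRIB3, a pseudokinase that restrains ATF4 signalling, had a promoter peak in replicate 2 at -72 bp (score 6.39, 43 tags, 31.1 to 57.9, rank 16067). CHAC1, an enzyme that degrades glutathione, had a peak in replicate 1 at 48282 bp in an intron of INO80 (score 4.53, 24 tags, 15.4 to 35.7, rank 9428), which held TGTTTAC 51 bp from its centre. Neither peak overlapped a peak of the other list, and no list had a peak at the CHAC1 promoter. The nearest peak to the CHAC1 start was 47.1 kb upstream, assigned to a noncoding locus, and was among the strongest of both lists, at rank 127 (score 26.4, 140 tags) and rank 86 (score 59.9), with TGTTTAC at its centre.

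Gene assignment by the nearest TSS left out strong peaks beside CEBPB and TRIB3. CEBPB, a bZIP partner and target of ATF4, has a single exon at chr20:50190830-50192668 on the plus strand. A peak inside its 3' untranslated region was assigned in both lists to the antisense gene CEBPB-AS1, as a promoter peak. It stood at -409 bp in replicate 1 and -351 bp in replicate 2 from the CEBPB-AS1 start. It scored 21.5 in replicate 1 at chr20:50192373-50192583 (114 tags, 94.0 to 137.0, rank 230) and 43.7 in replicate 2 at chr20:50192292-50192548 (294 tags, 261.0 to 330.0, rank 212). The centres lay 1.65 kb and 1.59 kb after the CEBPB start, and both scores exceeded every peak assigned to the 10 genes. The peaks held no TGTTTAC but held the printed TGATGCAA, 79 bp and 21 bp before the respective centres. As background, sequence downstream of the CEBPB coding region is known for its response to amino acid and endoplasmic reticulum stress. Whether this peak acts on CEBPB or on CEBPB-AS1 was not tested.

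For TRIB3 the lists used the start beside the promoter peak above, while GENCODE release 44 also gives an upstream start at position 362835. A peak assigned to NRSN2 ended 42 bp before that start in replicate 1 (chr20:362583-362793, score 8.11, 43 tags, 31.1 to 57.9, rank 3127) and 37 bp before it in replicate 2 (score 20.1, 135 tags, 113.0 to 160.0, rank 1544). The replicate 1 peak lay whole within the replicate 2 peak, at 211 bp of overlap. Both held TGATGGAA and no TGTTTAC.

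Counted by position and not by assignment, 4 of the 10 genes (GDF15, PHGDH, CEBPB and TRIB3) had a shared peak centred within 20 kb of any GENCODE start, beside 34.0% of 20046 coding genes. A shared peak from 1000 bp before to 100 bp after any start was found at GDF15 and TRIB3, 2 of 10, beside 14.1% of coding genes. Both counts again lay close to the background. The median distance from a canonical start to the nearest peak was 48.9 kb for the 10 genes and 45.2 kb for all coding genes in replicate 1, and 9.0 kb and 13.9 kb in replicate 2.

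ASNS and CEBPG were the genes farthest from any peak. ASNS, asparagine synthetase, is a classic reporter of the response, and no peak of either list fell within 100 kb of its canonical start at position 97872408. Just past that limit, a peak was shared at the start of CZ1P-ASNS, a readthrough locus that shares the ASNS name, with 47 tags in replicate 1 (score 8.87, rank 2511) and 118 tags in replicate 2 (score 17.5, rank 2255). CEBPG, a bZIP partner of ATF4, had its nearest replicate 1 peak 197.0 kb away. In replicate 2 its nearest peak was 71.1 kb away, at the CEBPA promoter, with 31 tags at rank 22620. With lists called from at least 16 and 21 tags, weaker occupancy at these genes was not detectable at this depth.

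The ATF4-type core was present at 3 of the promoters without a shared FOXK2 peak. In RefSeq promoters of GRCh38.p14, from 250 bp before to 50 bp after each start, TGATGNAA on either strand was found for 3 of the 9 genes with an entry (all but SHMT2), beside 3.6% of 15843 coding genes. These were ASNS, CHAC1 and CEBPG. The matches are shown in the direction of each gene, at chr7:97872459-97872486 on the minus strand and at chr15:40953252-40953279 and chr19:33374061-33374088 on the plus strand:
ASNS promoter core: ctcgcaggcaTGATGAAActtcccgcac
CHAC1 promoter core: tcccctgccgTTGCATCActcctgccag
CEBPG promoter core: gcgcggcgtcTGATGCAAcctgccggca
TGTTTAC was found in the promoter of 1 of 9 genes, GDF15, beside 3.75% of coding genes. The TGTTTAC match and a promoter peak in both lists thus fell on the same gene by the lists' own assignment, while the shared peak at the upstream TRIB3 start held no TGTTTAC, and that start was not among the searched promoters.

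Within 100 bp of the peak centres, TGTTTAC occurred in 3 of 6 replicate 1 peaks of the 10 genes (30.5% of all replicate 1 peaks) and in 4 of 11 replicate 2 peaks (28.2% of all replicate 2 peaks). The GDF15 peaks made up 2 of these in each list. TGATGNAA occurred in 0 of 6 peaks (4.04% of all) and in 1 of 11 (4.24% of all), the GDF15 peak printed above. The C/EBP-type core TTGCNNAA occurred in 1 of 6 (10.4% of all) and 2 of 11 (10.9% of all), and the palindromic AP-1 core TGANTCA in 2 of 6 (20.8% of all) and 1 of 11 (21.0% of all). Some peaks hold more than 1 of these cores, and counts this small were read only as a description.

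Of the 5 shared sites, 4 had score ratios between the 5th and 95th percentiles of all pairs, and the GDF15 upstream site lay above them. Replicate 2 scored 1.47, 2.68 and 1.58 times replicate 1 at the GDF15 promoter, the GDF15 upstream site and the weakest GDF15 site, 1.82 times at PSAT1 and 1.76 times at PHGDH. The median of 1.76 stood beside 1.73 over all 9343 pairs, whose 5th to 95th percentiles ran from 1.12 to 2.5. The median gap between centres was 111.0 bp, beside 29.0 bp over all pairs.

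**Figure D3:**
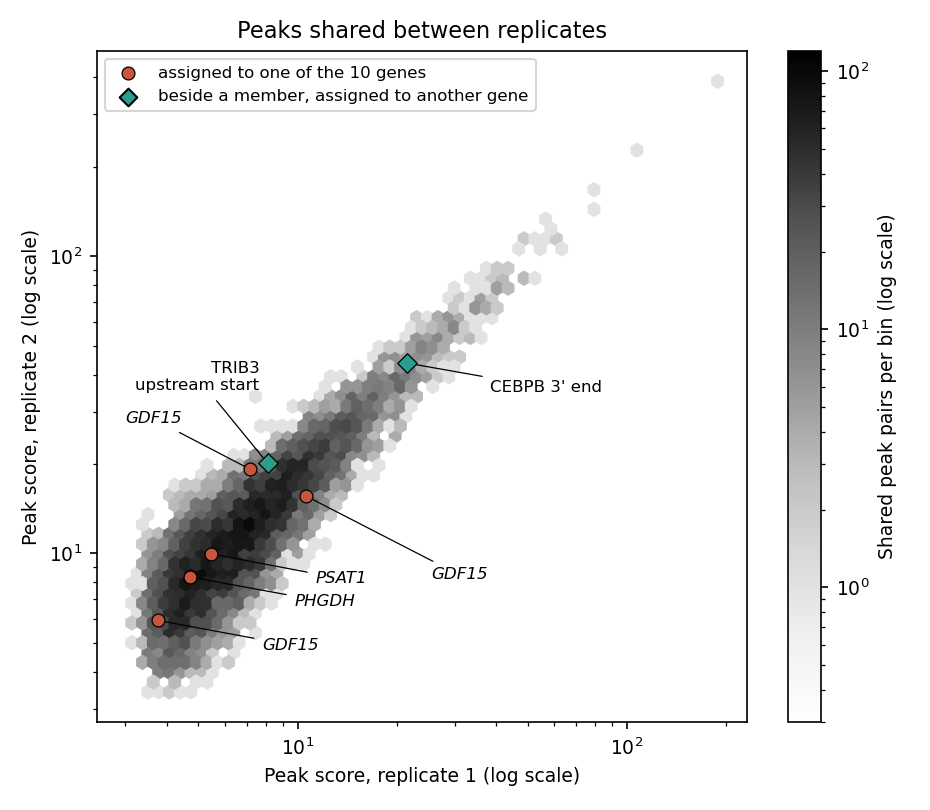
Score in replicate 2 against score in replicate 1, both on log axes, for the 9343 shared peaks as grey bins, with the 5 sites of the 10 genes as circles and the CEBPB 3' end and TRIB3 upstream start peaks as diamonds. The circles lie between scores 3.77 and 10.6 in replicate 1, and the CEBPB peak at 21.5 lies above them.

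Peaks were also counted on other genes of the same pathway, beside the 3 of 10 and the 28.6% of all coding genes given above. Of 73 further genes in 7 lists, 34 (46.6%) had an assigned peak in both replicates, and 15 (20.5%) had a promoter peak in both, beside 9.3% of all coding genes. Without the list of other regulators, 23 of 58 (39.7%) had an assigned peak in both. The 7 lists were written with earlier results of these data known, so their shares were read only as a description. Among 15 other regulators that ATF4 induces, 11 had peaks in both lists. KLHL24, a ubiquitin ligase adaptor, ranked 73 and 72 at its promoter (scores 32.1 and 62.5). Its replicate 2 peak was assigned to another gene, so KLHL24 was not among the 11. PPP1R15A, which directs the dephosphorylation of eIF2alpha, ranked 465 and 571 in its intron 1. JDP2, a bZIP repressor, ranked 465 and 363, and EIF4EBP1, an inhibitor of cap-dependent translation, ranked 906 and 938.

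Among serine, glycine and one-carbon enzymes beside the 10 genes, 6 of 8 had peaks in both lists (75.0%, beside 28.6% of coding genes). A promoter peak in both was found for 1 of 8 (12.5%, beside 9.3% of coding genes). The 6 included the MTHFD2 relatives MTHFD1L and MTHFD1. MTHFD1L ranked 1313 and 2755 at its best shared peak, in an intron, and had 9 and 13 peaks in all. MTHFD1 ranked 4892 and 5177, PSPH, which completes serine synthesis, ranked 4624 and 8868, and GLDC ranked 6145 and 9092. Of the other amino acid enzymes, 3 of 9 had peaks in both (33.3%), close to the 28.6% of coding genes. Promoter peaks in both were found for 2 of 9 (22.2%, beside 9.3% of coding genes). GOT1, an aspartate aminotransferase, ranked 99 and 76 at a peak 34761 bp and 34771 bp after its start, while ALDH18A1 at its promoter and CTH at 93299 bp had lower scores, of 4.53 and 4.34 in replicate 1. PCK2 and PYCR1 had no peak in either list.

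Amino acid transporters had peaks in both lists for 5 of 9 genes (55.6%, beside 28.6% of coding genes), and 3 (33.3%, beside 9.3%) had promoter peaks in both. SLC38A2, a neutral amino acid transporter, ranked 350 and 400 (scores 18.5 and 34.1), and SLC7A11, the cystine importer, ranked 1147 and 1915 (scores 11.9 and 18.6). SLC1A5 ranked 3663 and 3113 at its promoter and SLC1A4 ranked 6145 and 4149 at an intergenic site, and SLC7A3 had no peak. Cytosolic tRNA synthetases had peaks in both for 5 of 20 genes, each with a promoter peak in both, beside 28.6% of coding genes with any peak and 9.3% with a promoter peak in both. Their best sites were CARS1 (ranks 354 and 232, at a site -38674 bp from its start), GARS1 (1014 and 2688), TARS1 (6145 and 4466) and IARS1 (6955 and 8868).

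In the list of ATF4 and its upstream regulators, 4 of 9 genes had peaks in both replicates (28.6% of all coding genes did), and in 2 of 9 the peaks overlapped (25.8% of all coding genes). The 2 with overlap were EIF2AK1, the haem-regulated kinase, at ranks 603 and 750, and EIF2AK3, the kinase PERK of the unfolded protein response, at ranks 906 and 616 in intron 2. ATF4 itself and EIF2S1, which encodes eIF2alpha, had no peak in either list. Of the 3 other C/EBP genes, 0 had peaks in both, and CEBPD and CEBPE had none at all. Over the best shared peak of the 33 pathway genes that had 1, TGTTTAC occurred in 9 in each replicate (27.3%), beside 34.3% and 34.9% of all shared peaks. TGATGNAA occurred in 3 (9.09%) in replicate 1 and 5 (15.2%) in replicate 2, beside 4.1% and 4.15% of all shared peaks. The 33 are the best-ranked shared peak of each gene, so they are not a like sample of the shared peaks. TGATGNAA was in both replicates' windows at SLC7A11, ATF3 and SESN2, of which ATF3 and SESN2 were named after their values were seen.

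**Figure D4:**
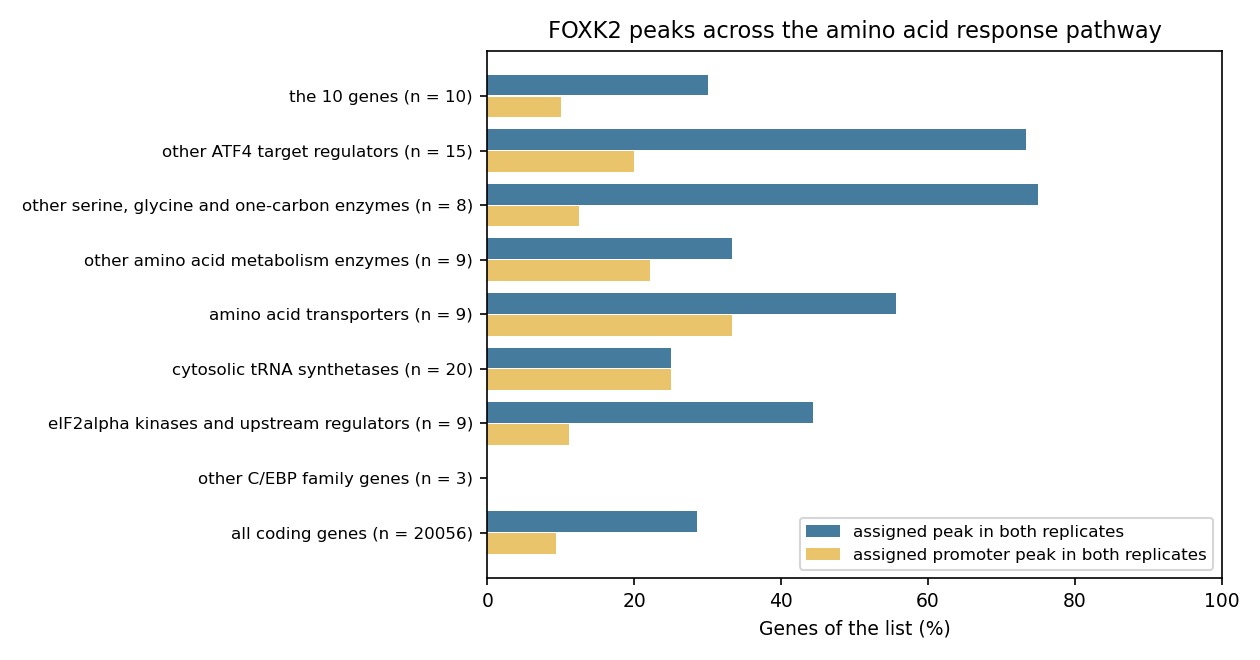
Share of genes in each list, in percent, with an assigned peak in both replicates and with an assigned promoter peak in both, with the number of genes in each list in brackets. The bars of the 10 genes (3 of 10 and 1 of 10) are about as long as those of all coding genes (28.6% and 9.3%), and the longest are those of the serine, glycine and one-carbon enzymes (75.0%) and the other regulators (73.3%).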

How the data were processed

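FOXK2 ChIP-seq of OVCAR-5 cells (passage 4 to 6) gave 2 peak lists. The authors sequenced single-end 50-bp reads, mapped them to hg38 with Bowtie2 2.2.6, and called and annotated peaks per replicate with HOMER 4.10; calling parameters and total mapped reads are not given in the sources used here. The deposited peak score is a signal, the tag count scaled to each library, and the deposited focus ratio is a fraction, from 0.605 to 0.837 over the peaks of the 10 genes. Tags were recovered as score divided by the step of the list, within 0.35 of a tag.

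Peaks were shared at 1 bp or more of overlap. Windows for motifs, read in both directions, reached 100 bp to each side of the centre. Starts came from GENCODE release 44 and promoter sequences from RefSeq; all 73 list genes matched. The overlap, motif and tag steps were tested on simulated data. The 10 genes, the lists and the motifs were chosen with earlier results of these data known. All 10 genes were named, with up to 4 genes of each list by best mean rank of a shared peak, and genes without a peak in lists of 9 or fewer. Alternatives covered score, list length, overlap, distance, motif form and replicate; counts at any GENCODE start and without the regulators list were added after seeing the data. Python 3.11.15, pandas 2.3.3, numpy 2.4.6, scipy 1.17.1, pysam 0.24.0, samtools 1.23.1 and matplotlib 3.10.9 were used.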

Additional observations from a re-analysis of the deposited data

How the results depend on the processing

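Of 37 alternative values, 27 stayed within 1.5 times the reported count. The number of the 10 genes with peaks in both lists, 3, went to 1 with the higher-scoring part of each list and to 1 with assigned peaks within 10 kb of the start, which left GDF15; over all coding genes the share also fell, to 17.7% and 16.9%. The number with overlapping peaks, 3, went to 1 under both of these settings. The number with a promoter peak in both, 1, went to 2 when promoter peaks of any gene were counted within 20 kb of any start. That setting adds CEBPB, through the promoter peak assigned to CEBPB-AS1. The number also went to 2 with shared peaks at any GENCODE start, which adds TRIB3. With a window of 50 bp to each side, 1 replicate 1 peak of the 10 genes held TGTTTAC in place of 3. Using a single replicate, the counts ran from 4 to 5 for any peak, from 1 to 3 for promoter peaks and from 36 to 55 of the 73 other genes; the overlap count has no value with 1 list. No paired analysis was possible because peak lists were used for FOXK2 libraries only and nothing was tested between groups. The lists stop at 16 and 21 tags, so weaker sites cannot be seen. The interval of a single score covers counting error only, while replicate 2 to replicate 1 ratios over all shared pairs ran from 1.12 to 2.5 (5th to 95th percentile).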
